A study of Homo sapiens with 12 samples.

Results

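The genes described here are 37 genes of homologous recombination and of the Fanconi anaemia pathway, chosen by name from the 32077 genes kept from the deposited count table. mRNA was sequenced from PC3 and DU145 cells, both labelled as prostate cancer lines, which were kept for 48 hours with pentamidine at 2.5 μmol/L or with vehicle, sterile distilled water. The design had 4 groups of 3 samples, namely PC3 vehicle, PC3 pentamidine, DU145 vehicle and DU145 pentamidine, and it asked how each line responds to the drug. Cells of all groups were seeded at 1000000 per well, and pentamidine is an aromatic diamidine used against Pneumocystis, trypanosomes and leishmania. Each line is an established culture that began from 1 metastasis, and nothing in the labels says that the 3 samples of a group came from separate cultures, so p-values measure only the spread between these samples.

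Homologous recombination repairs a broken chromosome by copying the intact sister chromatid. The broken ends are resected to 3′ tails, BRCA1, PALB2 and BRCA2 prepare them to pair with the sister, and the joined molecules are later taken apart by the BLM complex. The Fanconi pathway removes crosslinks between the strands of DNA: a core complex of FANC proteins attaches ubiquitin to FANCD2 and FANCI at a stalled fork, and the lesion is then cut out and repaired by recombination. Both routes work mainly in S and G2 phase, when a sister chromatid is present, and many of their genes are known targets of the E2F factors that drive S phase transcription.

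The stretches below are shown because they carry a promoter feature that many of the genes hold, which played no part in how they were chosen. The RefSeq promoter table (GRCh38.p14) held 300-base windows, from 250 bases before to 50 bases after the start of transcription, for 32 of the 37 genes. An E2F-type 7-mer (TTCCCGC, its variant TTGGCGC, the mixed form TTCGCGC and the mixed form TTGCCGC, on either strand) stood in a window of 19 of these 32 genes, or 59.4%. The share was 15.3% over all 27305 genes of the table and 22.4% over the 12984 protein-coding genes also in the count table. It was 80.6% for the 31 DNA replication genes and 18.8% for the 16 mitosis genes with an entry, and 30.6% for the 36 other genes of homologous recombination and Fanconi repair and 36.4% for the 11 end joining genes. TTGGCGC can share bases with a CCAAT box, which 16 of the 32 genes and 39.7% of all genes held. A CHR-type 6-mer, TTTGAA or TTTAAA, stood in 21.9% of the 32 genes and in 27.9% of all genes. A match is a description of the letters and not evidence of binding. Each line gives 27 bases of the coding strand of 1 gene, with the first match that had 10 bases on either side in capitals, in the order of the response in PC3 cells from the most negative log2 fold change to the most positive.
BRIP1 at chr17:61863510-61863536, minus strand: ggggcgggagGCGGGAAttcgtctcgg
XRCC2 at chr7:152676104-152676130, minus strand: ggcgttggtgGCGGGAAagttgagtct
RAD54L at chr1:46247629-46247655, plus strand: cgcagcactaTTCCCGCctcttccttg
BLM at chr15:90717262-90717288, plus strand: gcctgaggggGCGGGAAcagatgtccg
EXO1 at chr1:241848199-241848225, plus strand: aggtcagcctTTCGCGCgctgtgtagg
FANCG at chr9:35080010-35080036, minus strand: ctcggtggaaGCGGGAAcccaggagga
FANCA at chr16:89816803-89816829, minus strand: ctacaccgcgGCGGCAAagccaaacgc
BARD1 at chr2:214809663-214809689, minus strand: cgtcccagacGCGGGAAgagcttggcc
BRCA1 at chr17:43125395-43125421, minus strand: acggaaaagcGCGGGAAttacagataa
RAD51AP1 at chr12:4538859-4538885, plus strand: ctggttttggGCGGGAAttgaaaccgc
XRCC3 at chr14:103715437-103715463, minus strand: gagcaggacgGCGGGAAgaggagtgcg
FANCD2 at chr3:10026425-10026451, plus strand: gtcgggcctgGCGGGAAagtcgaaaac
MMS22L at chr6:97283175-97283201, minus strand: gcgcgcggtgGCGGGAAtttcgcctgt
RMI1 at chr9:83980607-83980633, plus strand: tcctttctcgTTCGCGCactcactagc
FANCC at chr9:95317353-95317379, minus strand: gcgagaggggTTCCCGCcggcgcaggg
FANCL at chr2:58241408-58241434, minus strand: ctccaggatcTTCCCGCcaaggctggg
FANCE at chr6:35452346-35452372, plus strand: ttccgacagcGCGGGAAcggctgcggc
RAD51D at chr17:35119802-35119828, minus strand: ggctctgggcGCGGGAAtcccggcgga
FANCF at chr11:22625806-22625832, minus strand: aagtagggccTTCGCGCacctcatgga

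The median response of the 19 genes with a match was -0.63 (log2) in PC3 and -0.052 in DU145 cells, and 16 and 4 of them fell at an adjusted p below 0.05. For the 13 genes without a match the medians were -0.34 and -0.19, and 8 and 6 fell. For the 5 genes without a window the medians were -0.52 and -0.043, and 4 and 1 fell. Over all genes tested, 21.7% fell in PC3 and 16.8% in DU145 cells. The last 3 genes of the list, FANCE, RAD51D and FANCF, were called in neither line. Their place at its end follows from the ordering by the response in PC3 cells. XRCC2 and BLM, the genes with the largest mean change among those that fell in both lines, are also shown with the 250 bases before their start.
XRCC2 at chr7:152676142-152676391, minus strand: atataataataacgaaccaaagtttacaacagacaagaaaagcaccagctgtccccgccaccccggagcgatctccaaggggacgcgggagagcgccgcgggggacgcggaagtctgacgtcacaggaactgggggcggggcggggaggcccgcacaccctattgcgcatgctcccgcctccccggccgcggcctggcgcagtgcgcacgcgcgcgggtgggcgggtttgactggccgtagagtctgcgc
BLM at chr15:90717096-90717345, plus strand: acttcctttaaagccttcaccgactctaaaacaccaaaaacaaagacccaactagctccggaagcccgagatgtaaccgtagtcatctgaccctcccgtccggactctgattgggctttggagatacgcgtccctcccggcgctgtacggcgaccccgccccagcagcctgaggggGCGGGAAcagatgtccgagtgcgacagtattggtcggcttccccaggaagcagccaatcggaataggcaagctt

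The match of XRCC2 lay after the start of transcription, so its 250 bases carry no capitals. BLM had 3 matches, and the capitals mark the one at 74 bases before the start. BRCA2, FANCM and CHEK2, the next members in that order, had none in their windows.

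Library totals ranged from 13514195 to 15131436 counts, and 1 count was worth between 0.0648 and 0.0757 CPM, the normalized unit in which a library sums to about 1000000. No 2 samples of a group agreed within sampling noise. Protein-coding transcripts of the mitochondrial genome took 3.35% to 4.04% of the counts with vehicle and 0.205% to 0.257% with pentamidine in the 2 lines. Mitochondrial rRNAs and tRNAs are not part of these shares. Some of the 5 epithelial markers went against the labels: EPCAM, KRT19 and CDH1 had 0 to 10 counts in each of the 12 samples, and KRT8 had 238 to 307 counts in the PC3 samples against 25835 to 38812 in the DU145 samples. KRT18, the other epithelial marker of the list, was abundant in both lines, with 2125 to 3085 counts in the PC3 and 9962 to 13423 in the DU145 samples. The immune markers PTPRC and CD68 had at most 1 and 6 counts in a sample, and the 5 stromal and endothelial markers summed to at most 3.51 CPM. The names PC3 and DU145 therefore stand for the samples labelled so.

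Pentamidine was accompanied by lower mRNA of most of the 37 genes in PC3 cells and by small changes in DU145 cells. In PC3 cells 28 of the 37 genes fell at an adjusted p below 0.05, 2 rose and 7 were not called, where 21.7% of the 13861 genes tested fell and 21.7% rose. The median log2 fold change was -0.55 over the 37 genes and 0.0046 over all genes. In DU145 cells 11 genes fell, 1 rose and 25 were not called, against 16.8% of 14313 genes that fell and 17.2% that rose, and the medians were -0.052 and 0.0085. All 37 genes passed the filter on low counts. Bulk RNA cannot tell a smaller share of cells expressing a gene from less of its RNA per cell.

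The changes were modest in size. At the study's threshold, an absolute log2 fold change above 1 with an adjusted p below 0.05, FANCB in PC3 cells was the only call, against 4.75% of genes tested in PC3 cells, and DU145 cells, where the 37 values lay between -0.35 and 0.21, gave 0 calls, against 2.03%. The 3 pentamidine samples lay wholly to one side of the 3 vehicle samples for 30 of the 37 genes in PC3 cells and for 17 in DU145 cells, where 52.3% and 44.3% of all genes tested did so. Summed over the 37 genes, the level was 2227 ± 54.5 CPM (SD, n = 3) in PC3 vehicle and 1676 ± 51.6 in PC3 pentamidine samples. The sums in DU145 cells were 2006 ± 19.9 with vehicle and 1882 ± 33.5 with pentamidine. Among all called genes of DU145 cells 50.6% were higher, and 66.6% when the counts were scaled by library size alone, under which 8 of the 37 genes fell and 1 rose.

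**Figure D1:**
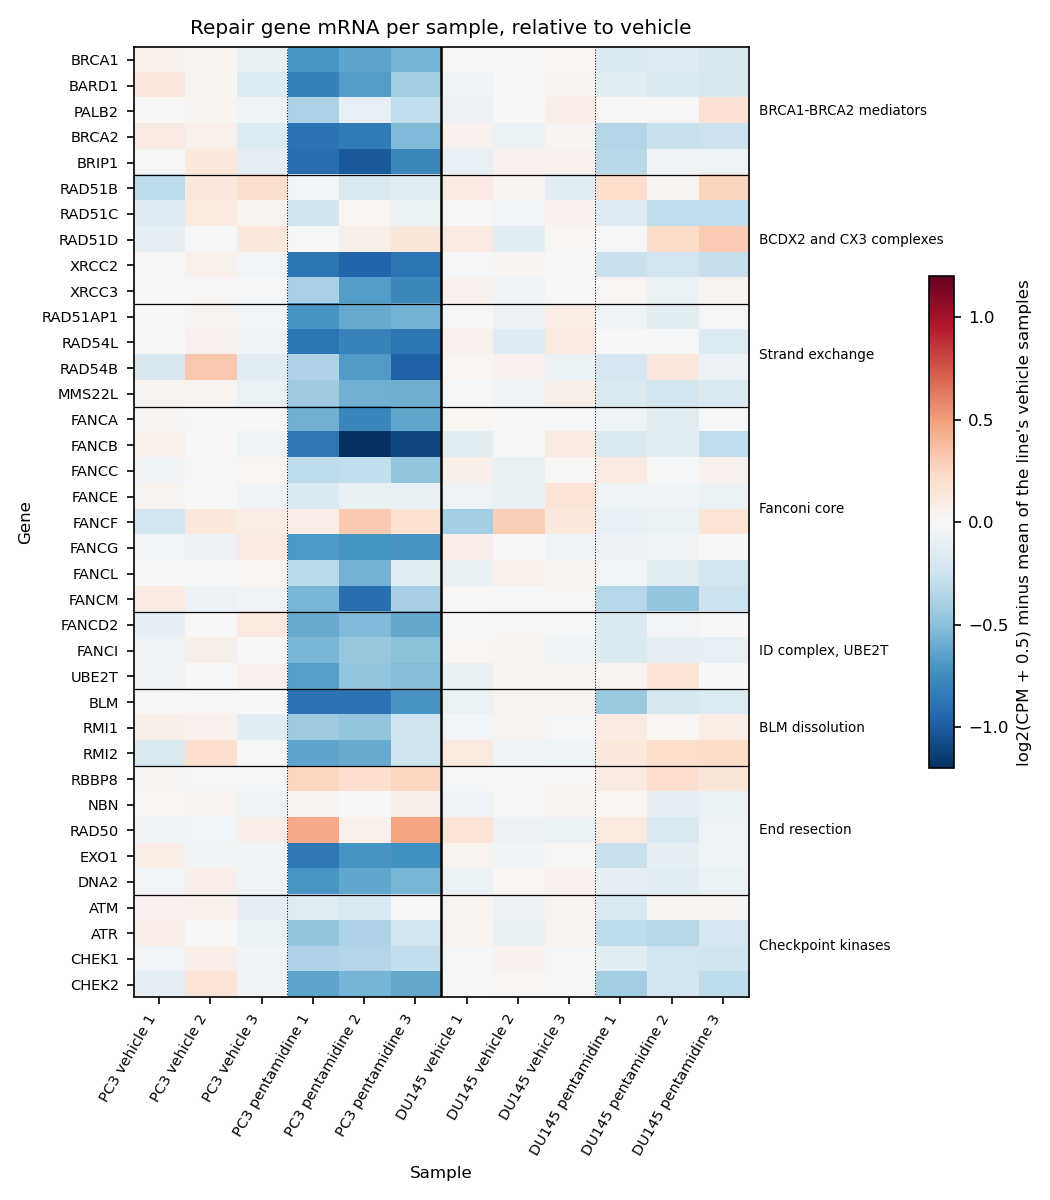
Each row is 1 of the 37 genes and each column 1 of the 12 samples. The colour is log2(CPM + 0.5) minus the mean of the vehicle samples of the same line, capped at 1.2 in either direction. The 3 PC3 pentamidine columns are blue for most rows, RBBP8 is red in all of them and RAD50 in pentamidine samples 1 and 3, and the DU145 pentamidine columns are paler.

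The BRCA1-BRCA2 mediators fell together in PC3 cells, 5 of 5, and 2 of 5 fell in DU145 cells. Over all genes tested 21.7% fell in PC3 and 16.8% in DU145 cells. BRCA1, the ubiquitin ligase that starts recombination at a break, was measured at 140.5, 138 and 127 CPM with vehicle and 83.04, 86.6 and 91.4 CPM with pentamidine. Its level in DU145 cells was 72.4, 71.5 and 73.8 CPM with vehicle and 64.4, 65.1 and 63.4 CPM with pentamidine. The drug groups lay below the vehicle groups in both lines, with log2 fold changes of -0.63 ± 0.059 (SE, n = 3 per group) and adjusted p = 1.63e-07 in PC3 cells, and -0.16 ± 0.049 with adjusted p = 0.00907 in DU145 cells. BRCA2, which PALB2 brings to the break, had 67.5, 65.5 and 55.9 CPM with vehicle and 33.8, 34.7 and 43.2 CPM with pentamidine. In DU145 cells BRCA2 was at 62.8, 57.3 and 61.9 CPM with vehicle and 47.4, 50.3 and 50.9 CPM with pentamidine. Its groups did not overlap in either line, and the log2 fold changes were -0.76 ± 0.093 (adjusted p = 4.46e-06) and -0.28 ± 0.055 (adjusted p = 7.01e-05).

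BRIP1, the helicase FANCJ that binds BRCA1, had 48.3, 53.3 and 45.3 CPM with vehicle and 25.7, 24.04 and 28.3 CPM with pentamidine. In DU145 cells it had 41.2, 45.7 and 45.9 CPM with vehicle and 35.1, 42.97 and 42.4 CPM with pentamidine, where the groups overlapped. BRIP1 fell by 0.91 on the log2 scale in PC3 cells (adjusted p = 1.48e-07), and its value in DU145 cells was -0.13 ± 0.067 (adjusted p = 0.143, and 0.0463 without DU145 vehicle sample 1). BARD1, the partner of BRCA1 in the ligase, fell in PC3 cells with a log2 fold change of -0.63 (adjusted p = 6.83e-05) and had -0.15 in DU145 cells (adjusted p = 0.0662). PALB2, which joins BRCA1 to BRCA2, showed the smallest fall of the 5 in PC3 cells, -0.25 (adjusted p = 0.00945), a call that was lost without PC3 pentamidine sample 1 (adjusted p = 0.0752). In DU145 cells its log2 fold change was 0.081 (adjusted p = 0.345).

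The genes of the BCDX2 and CX3 complexes, RAD51B, RAD51C, RAD51D, XRCC2 and XRCC3, which assist recombination, were divided. In PC3 cells 2 of the 5 fell and in DU145 cells 2 of 5, against 21.7% and 16.8% of all genes tested. XRCC2 had the largest mean change over both lines among the genes called in both. It was measured at 61.5, 65.1 and 60.99 CPM with vehicle and 33.9, 32.1 and 33.9 CPM with pentamidine, with no overlap. In DU145 cells XRCC2 had 41.4, 43.00 and 41.9 CPM with vehicle and 34.9, 35.7 and 34.6 CPM with pentamidine. The log2 fold changes were -0.91 ± 0.067 (adjusted p = 8.86e-09) and -0.25 ± 0.063 (adjusted p = 0.00142). XRCC3 fell in PC3 cells, at -0.61 (adjusted p = 4.38e-05) against 0.015 (adjusted p = 0.884) in DU145 cells. Its value is uncertain, since 76.7% of its exon bases in GENCODE release 29 are also covered by exons of KLC1 on the other strand and the strand setting of the counting is not given in the sources used here. RAD51C fell in DU145 cells (-0.24, adjusted p = 0.00378) and had -0.10 in PC3 cells (adjusted p = 0.371). RAD51B had -0.14 and 0.20 (adjusted p = 0.55 and 0.322) and RAD51D had 0.067 and 0.20 (adjusted p = 0.59 and 0.155) in PC3 and DU145 cells. RAD51B was counted at 4.79 to 7.18 CPM over the 12 samples, the thinnest measurement of this group.

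The genes that act in strand exchange fell in PC3 cells, 4 of 4, against 21.7% of all genes tested. In DU145 cells 1 of 4 fell, against 16.8%. RAD54L, the motor that remodels the joint molecule, had 44.5, 46.2 and 43.03 CPM with vehicle and 23.97, 25.3 and 24.2 CPM with pentamidine. In DU145 cells RAD54L had 30.9, 26.8 and 32.2 CPM with vehicle and 29.98, 29.5 and 26.6 CPM with pentamidine, and the groups overlapped. Its log2 fold changes were -0.86 ± 0.072 (adjusted p = 4.37e-08) and -0.046 ± 0.076 (adjusted p = 0.683). Of the exon bases of RAD54L 25.1% are shared with LRRC41 on the other strand, whose mean count was 354% of that of RAD54L. Since the strand setting is not given, the RAD54L count is uncertain. RAD54B, its relative, was counted far lower, at 6.00, 8.82 and 6.31 CPM with vehicle and 5.27, 4.15 and 3.31 CPM with pentamidine. The DU145 samples gave 8.37, 8.56 and 7.77 CPM with vehicle and 7.09, 9.05 and 7.80 CPM with pentamidine. RAD54B fell in PC3 cells by 0.73 (adjusted p = 0.00655, and 0.0584 without PC3 vehicle sample 2, the highest) and had -0.027 in DU145 cells (adjusted p = 0.904). Of its exon bases 59.1% are also exons of FSBP on the same strand, so the RAD54B count is uncertain.

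MMS22L, a subunit of the complex with TONSL that acts at stalled forks, had 86.1, 85.5 and 79.3 CPM with vehicle and 62.2, 55.8 and 55.5 CPM with pentamidine. The DU145 levels of MMS22L were 50.4, 49.4 and 53.8 CPM with vehicle and 45.3, 43.7 and 45.1 CPM with pentamidine. MMS22L fell in both lines, by 0.53 (adjusted p = 4.44e-06) and 0.18 (adjusted p = 0.012) on the log2 scale. The call in DU145 cells was lost without DU145 vehicle sample 3 (adjusted p = 0.100) or pentamidine sample 2 (0.0510). RAD51AP1, which binds DNA and promotes pairing, fell in PC3 cells at -0.63 (adjusted p = 7.85e-07) and had -0.052 in DU145 cells (adjusted p = 0.528).

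In the Fanconi core group 6 of 8 genes fell in PC3 cells, against 21.7% of all genes tested. In DU145 cells 1 of 8 fell (12.5%), which is below the 16.8% of all genes tested. FANCB, an X-linked core subunit, showed the largest change of the 37 genes in PC3 cells, with 12.3, 11.8 and 11.3 CPM with vehicle and 6.28, 4.58 and 5.26 CPM with pentamidine. The DU145 samples had 11.9, 13.1 and 14.02 CPM with vehicle and 11.4, 11.8 and 10.5 CPM with pentamidine, without overlap between the groups. The log2 fold changes of FANCB were -1.13 ± 0.14 (adjusted p = 5.6e-06) in PC3 and -0.20 ± 0.11 (adjusted p = 0.174) in DU145 cells. FANCG, another core subunit, was measured at 82.3, 79.9 and 90.7 CPM with vehicle and 52.1, 51.2 and 51.2 CPM with pentamidine. In DU145 cells FANCG was at 125, 117 and 114 CPM with vehicle and 113, 115 and 119 CPM with pentamidine, with the groups overlapping. FANCG had log2 fold changes of -0.71 ± 0.063 (adjusted p = 1.01e-07) and -0.022 ± 0.042 (adjusted p = 0.735).

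FANCM, the translocase that anchors the core complex on DNA, was the only gene of this group to fall in both lines. It had 26.2, 23.1 and 23.5 CPM with vehicle and 16.4, 12.7 and 18.3 CPM with pentamidine. In DU145 cells FANCM had 25.1, 24.3 and 25.02 CPM with vehicle and 19.4, 17.7 and 20.6 CPM with pentamidine. The log2 fold changes were -0.61 ± 0.11 (adjusted p = 0.000353) and -0.35 ± 0.084 (adjusted p = 0.000719), the latter being the most negative of the 37 genes in DU145 cells. FANCA, FANCC and the ligase FANCL fell in PC3 cells at -0.66, -0.36 and -0.34 (adjusted p = 1.04e-07, 0.000801 and 0.00913). Their log2 fold changes in DU145 cells were -0.059, 0.061 and -0.12 (adjusted p = 0.313, 0.523 and 0.228). The call of FANCL in PC3 cells was lost without PC3 pentamidine sample 2 (adjusted p = 0.0627), and 23.6% of the exon bases of FANCA and 19.7% of those of FANCL are shared with genes on the other strand. The adaptors FANCE and FANCF were called in neither line, with -0.12 and 0.20 in PC3 cells (adjusted p = 0.275 and 0.31) and, in DU145 cells, -0.052 and -0.023 (adjusted p = 0.664 and 0.941).

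The targets of the core complex, FANCD2 and FANCI, and UBE2T, the ubiquitin-conjugating enzyme that serves it, all fell in PC3 cells. FANCI had 146, 159 and 151 CPM with vehicle and 104, 111 and 107 CPM with pentamidine. In DU145 cells FANCI was at 134, 135 and 127 CPM with vehicle and 117, 123 and 123 CPM with pentamidine, just apart. Its log2 fold changes were -0.50 ± 0.055 (adjusted p = 1.19e-06) and -0.11 ± 0.040 (adjusted p = 0.0265). The call in DU145 cells was lost under DESeq2 (adjusted p = 0.0605) and without DU145 vehicle sample 1 (0.0521), vehicle sample 2 (0.100) or pentamidine sample 1 (0.108). FANCD2 had -0.58 (adjusted p = 2.69e-06) and UBE2T -0.55 (adjusted p = 1.16e-05) in PC3 cells. Their values in DU145 cells were -0.052 (adjusted p = 0.393) and 0.082 (adjusted p = 0.326).

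The genes of the BLM dissolution complex fell in PC3 cells, 3 of 3, against 21.7% of all genes tested. BLM, the helicase mutated in Bloom syndrome, had 58.8, 60.1 and 59.1 CPM with vehicle and 31.9, 31.9 and 36.2 CPM with pentamidine. The DU145 samples gave 66.2, 71.8 and 71.8 CPM with vehicle and 51.3, 61.3 and 62.5 CPM with pentamidine, with the lowest value in pentamidine sample 1. The log2 fold changes of BLM were -0.83 ± 0.070 (adjusted p = 5.51e-08) and -0.25 ± 0.057 (adjusted p = 0.000522). RMI2, an OB-fold subunit of the complex, was scarce at 7.01, 9.27 and 7.87 CPM with vehicle and 5.00, 5.08 and 6.68 CPM with pentamidine. In DU145 cells RMI2 had 12.5, 11.01 and 10.9 CPM with vehicle and 12.5, 13.3 and 13.5 CPM with pentamidine, and the pentamidine samples were higher by a small margin. The log2 fold change of RMI2 was -0.52 ± 0.16 in PC3 cells (adjusted p = 0.0161), a call lost without PC3 vehicle sample 2 (0.0923), pentamidine sample 1 (0.0762) or pentamidine sample 2 (0.0671), and 0.21 ± 0.11 in DU145 cells (adjusted p = 0.138). RMI1 had -0.38 and 0.084 (adjusted p = 0.00142 and 0.34).

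The end resection genes did not move as a group: in PC3 cells 2 of 5 fell and 2 rose, and in DU145 cells 1 rose. Of all genes tested, 21.7% fell and 21.7% rose in PC3 cells, and 17.2% rose in DU145 cells. RBBP8, which encodes CtIP, the factor that starts resection, was the only gene to rise in both lines and is given per sample after its values were seen. It had 116, 113 and 113 CPM with vehicle and 136, 131 and 136 CPM with pentamidine. In DU145 cells RBBP8 was at 121, 123 and 124 CPM with vehicle and 133, 141 and 135 CPM with pentamidine. Its groups did not overlap in either line, with log2 fold changes of 0.24 ± 0.051 (adjusted p = 0.000921) and 0.17 ± 0.040 (adjusted p = 0.000666). RAD50, a subunit of the MRE11 complex, was chosen for the same reason and had 14.96, 15.2 and 16.5 CPM with vehicle and 21.4, 16.2 and 21.8 CPM with pentamidine. The second treated sample lay among the vehicle samples. The log2 fold change of RAD50 was 0.36 ± 0.11 (adjusted p = 0.0187), and the call was lost without PC3 vehicle sample 2 (adjusted p = 0.0663), pentamidine sample 1 (0.0982) or pentamidine sample 3 (0.102). Of its exon bases 79.7% also belong to AC116366.3, a gene on the same strand that had 0 or 1 count per sample, so the RAD50 count is uncertain. In DU145 cells RAD50 had -0.026 (adjusted p = 0.883).

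EXO1 and DNA2, the nucleases that extend resection, fell in PC3 cells at -0.77 and -0.63 (adjusted p = 2.2e-07 and 1.74e-06). In DU145 cells they had -0.13 and -0.092 (adjusted p = 0.0613 and 0.188), and EXO1 passed the threshold without DU145 vehicle sample 2 (0.0434) or pentamidine sample 3 (0.0214). NBN, the third subunit of the MRE11 complex, was called in neither line, with 0.035 and -0.043 (adjusted p = 0.635 and 0.461).

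Of the checkpoint kinases, 3 of 4 fell in each line, against 21.7% of all genes tested in PC3 and 16.8% in DU145 cells. CHEK2, the effector of ATM, had 51.3, 61.5 and 53.6 CPM with vehicle and 35.4, 37.4 and 35.9 CPM with pentamidine. In DU145 cells CHEK2 had 31.8, 32.3 and 31.6 CPM with vehicle and 23.7, 27.4 and 25.7 CPM with pentamidine. The log2 fold changes of CHEK2 were -0.61 ± 0.077 (adjusted p = 6.08e-06) and -0.30 ± 0.073 (adjusted p = 0.00102). ATR, the kinase that senses single-stranded DNA, had 73.3, 69.7 and 65.4 CPM with vehicle and 50.03, 53.5 and 59.6 CPM with pentamidine. ATR in DU145 cells had 78.3, 71.7 and 78.4 CPM with vehicle and 61.5, 60.4 and 65.9 CPM with pentamidine. Its changes were of similar size in the lines, -0.35 ± 0.072 (adjusted p = 0.000772) and -0.27 ± 0.051 (adjusted p = 3.72e-05), and 16.4% of its exon bases lie under exons of AC109992.1 on the other strand.

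CHEK1, the effector of ATR, had 59.6, 64.2 and 59.1 CPM with vehicle and 46.9, 47.6 and 49.4 CPM with pentamidine. The DU145 samples had 86.9, 91.5 and 87.03 CPM with vehicle and 80.9, 75.1 and 74.7 CPM with pentamidine for CHEK1, again without overlap. CHEK1 fell by 0.34 (adjusted p = 0.000378) and 0.19 (adjusted p = 0.00132) on the log2 scale. ATM, the kinase that answers to breaks, had 247, 248.6 and 221 CPM with vehicle and 216, 210.3 and 242 CPM with pentamidine, with overlapping groups. In DU145 cells ATM had 126, 117 and 127 CPM with vehicle and 109, 126 and 126 CPM with pentamidine. ATM was called in neither line, with -0.10 ± 0.062 (adjusted p = 0.207) and -0.019 ± 0.045 (adjusted p = 0.792), although without PC3 vehicle sample 3 its adjusted p in PC3 cells was 0.0462.

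**Figure D2:**
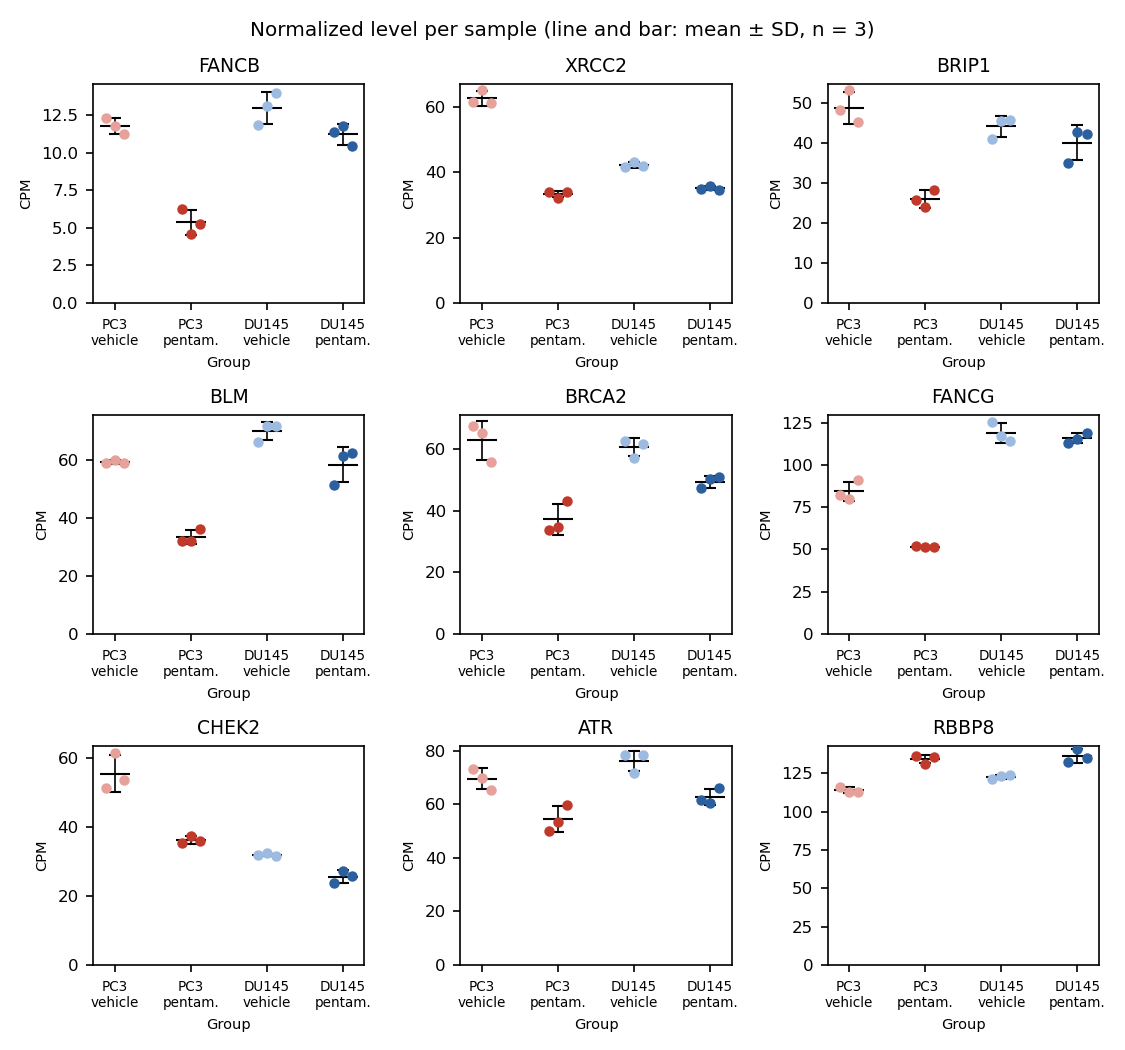
Each point is the level of 1 sample in CPM on an axis from 0, and the line with its bar is the mean ± SD of the 3 samples of a group. FANCB, XRCC2, BRIP1, BLM, BRCA2, FANCG, CHEK2 and ATR are lower with pentamidine in PC3 cells, and RBBP8 is higher in both lines.

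Across the 2 lines, 10 genes fell in both (BRCA1, BRCA2, XRCC2, MMS22L, FANCM, FANCI, BLM, ATR, CHEK1 and CHEK2) and RBBP8 rose in both. A further 18 genes fell and RAD50 rose in PC3 cells without a call in DU145 cells, and RAD51C fell in DU145 cells without a call in PC3 cells. The 6 genes RAD51B, RAD51D, FANCE, FANCF, NBN and ATM were called in neither line. The matching shares over all genes tested were not computed, so these counts across both lines have no background beside them. Whether a response differed between the lines was tested directly, as the DU145 response minus the PC3 response in a fit of all 12 samples. The difference was positive for 24 of the 37 genes, which means a more negative response in PC3 cells for each of them, and negative for 0, against 10.3% and 10.2% of the 15226 genes tested by edgeR. At an unadjusted p below 0.05 it was negative for 1, RAD50, and by DESeq2 it was positive for 23 and negative for 0. The median difference was 0.47 (log2) over the 37 genes and 0.0091 over all genes. Scaling by library size alone raised the share of positive calls among all genes from 50.3% to 66.7%.

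The largest differences were those of FANCB (0.93 ± 0.18, adjusted p = 0.000249), RAD54L (0.81 ± 0.11, adjusted p = 1.9e-06) and BRIP1 (0.78 ± 0.12, adjusted p = 1.13e-05). RMI2, RAD54B and FANCG followed at 0.73, 0.71 and 0.69 (adjusted p = 0.00581, 0.0351 and 8.84e-08). The difference passed the test for 5 of 5 mediators, 4 of 4 strand exchange genes, and 3 of 3 genes each of the FANCD2 group and the BLM complex. It passed for 4 of 8 core genes, 2 of 5 genes of the BCDX2 and CX3 complexes, 2 of 5 resection genes and 1 of 4 kinases. Of all genes tested 10.3% had a positive difference. The kinases ATR and CHEK1 fell in both lines, with differences of 0.085 ± 0.092 (adjusted p = 0.58) and 0.16 ± 0.078 (adjusted p = 0.172). FANCM had 0.26 ± 0.14 (adjusted p = 0.223). The calls of CHEK2 (adjusted p = 0.0334) and RAD54B were each lost in 8 of the 12 fits that left out 1 sample, with adjusted p up to 0.123 without PC3 vehicle sample 2 for CHEK2 and 0.153 without the same sample for RAD54B.

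**Figure D3:**
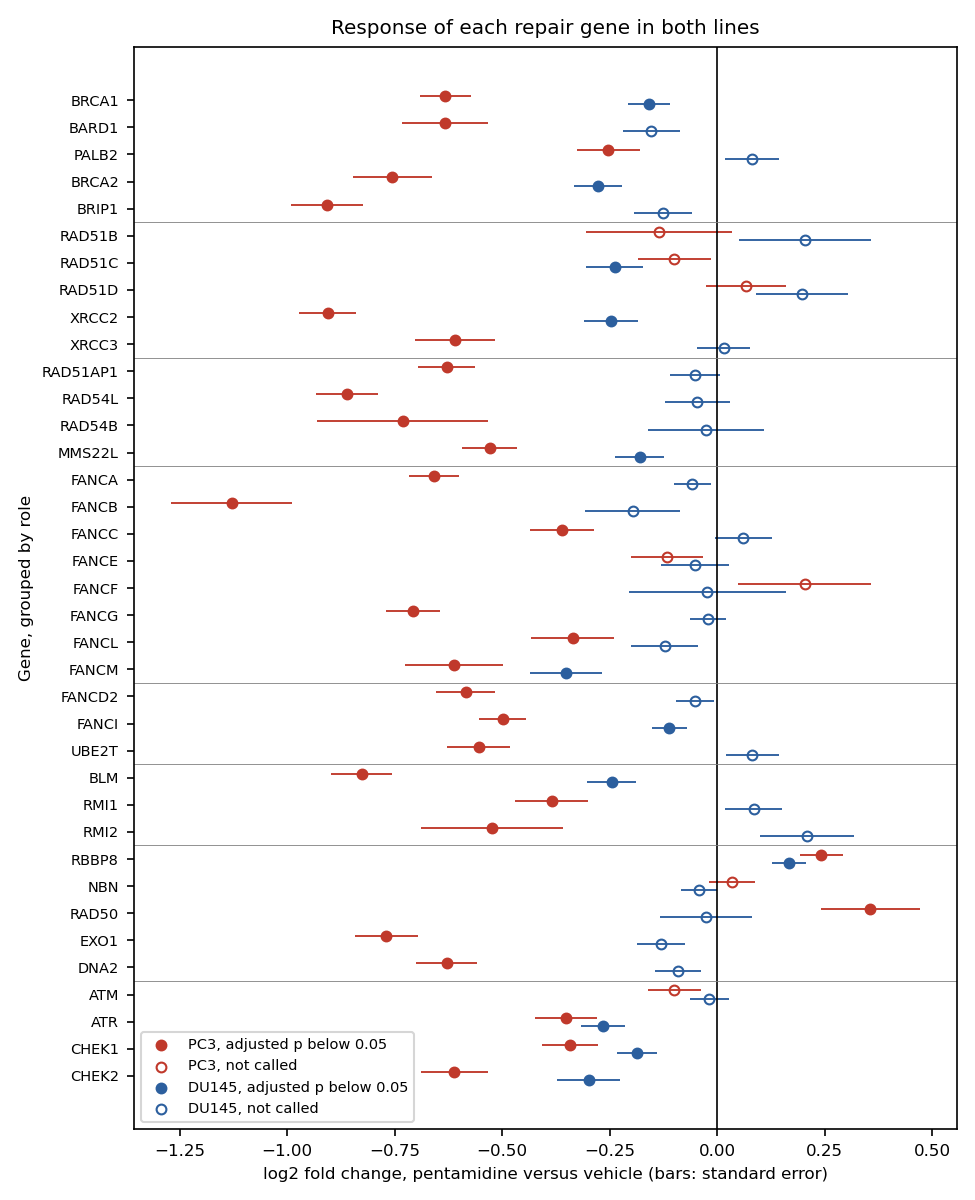
Points give the log2 fold change of pentamidine against vehicle for each of the 37 genes in PC3 (red) and DU145 cells (blue), with bars of 1 standard error. Filled points passed an adjusted p of 0.05. The red points of 32 genes lie below 0, from -1.13 for FANCB, and the blue points lie between -0.35 and 0.21.

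With vehicle, some of the 37 genes differed between the lines in either direction, at shares near those of all genes. DU145 vehicle samples were lower than PC3 vehicle samples for 12 genes (32.4%) and higher for 11 (29.7%). Of the 14394 genes tested 31.5% were lower and 33.8% higher. The median difference over the 37 genes was -0.041. Scaling by library size alone gave 15 lower and 8 higher. The widest differences were -0.93 and 0.56, so 0 of the 37 genes passed the study's threshold here, which 19.2% of all genes did. The widest gap was that of ATM, whose vehicle levels are given above, at -0.93 ± 0.057 (adjusted p = 4.07e-10) for DU145 minus PC3. BRCA1, CHEK2 and MMS22L followed with -0.87, -0.77 and -0.68 (adjusted p = 6.76e-10, 1.75e-07 and 5.2e-08). The 3 vehicle samples of a line did not overlap with those of the other for any of the 4.

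RAD51D (-0.66), RAD54L (-0.55), XRCC2 (-0.55), PALB2 (-0.54), FANCA (-0.39), BARD1 (-0.29), RAD51AP1 (-0.25) and FANCI (-0.18) were also lower in DU145 vehicle samples. The genes higher there were CHEK1 (0.56), RMI2 (0.53), FANCG (0.52), FANCD2 (0.50), EXO1 (0.33), XRCC3 (0.27), BLM (0.26), NBN (0.24), DNA2 (0.22), ATR (0.16) and RBBP8 (0.13). The calls of ATR (adjusted p = 0.0368) and RBBP8 (adjusted p = 0.0245) were lost under DESeq2, at 0.0751 and 0.0556, and in several fits without 1 sample: ATR without PC3 vehicle sample 2 or 3 or DU145 vehicle sample 1 or 3, and RBBP8 without PC3 vehicle sample 2 or 3 or DU145 vehicle sample 2 or 3.

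Per exon length, in RPKM (CPM divided by kilobases of exon, exons of GENCODE release 29), the highest levels with vehicle in PC3 cells were those of UBE2T at 26.0 ± 0.870 (SD, n = 3), RAD51AP1 at 23.9 ± 0.682, FANCG at 23.3 ± 1.57 and RBBP8 at 22.4 ± 0.395. RAD51AP1 and FANCG did not differ beyond their spread. In DU145 cells FANCG led with 32.9 ± 1.63 RPKM, followed by UBE2T at 25.8 ± 1.31, RBBP8 at 24.1 ± 0.261 and NBN at 21.6 ± 0.843. RAD51B was the lowest in both lines, at 0.825 ± 0.162 RPKM in PC3 and 0.788 ± 0.0728 RPKM in DU145 cells. BRCA1 and BRCA2 stood at 14.7 ± 0.772 and 5.13 ± 0.508 RPKM in PC3 cells and at 7.90 ± 0.125 and 4.94 ± 0.241 RPKM in DU145 cells. ATM, the highest of the 37 genes in CPM in PC3 vehicle samples, was at 9.97 ± 0.647 RPKM there, since it has the longest exons, 23972 bases in all.

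**Figure D4:**
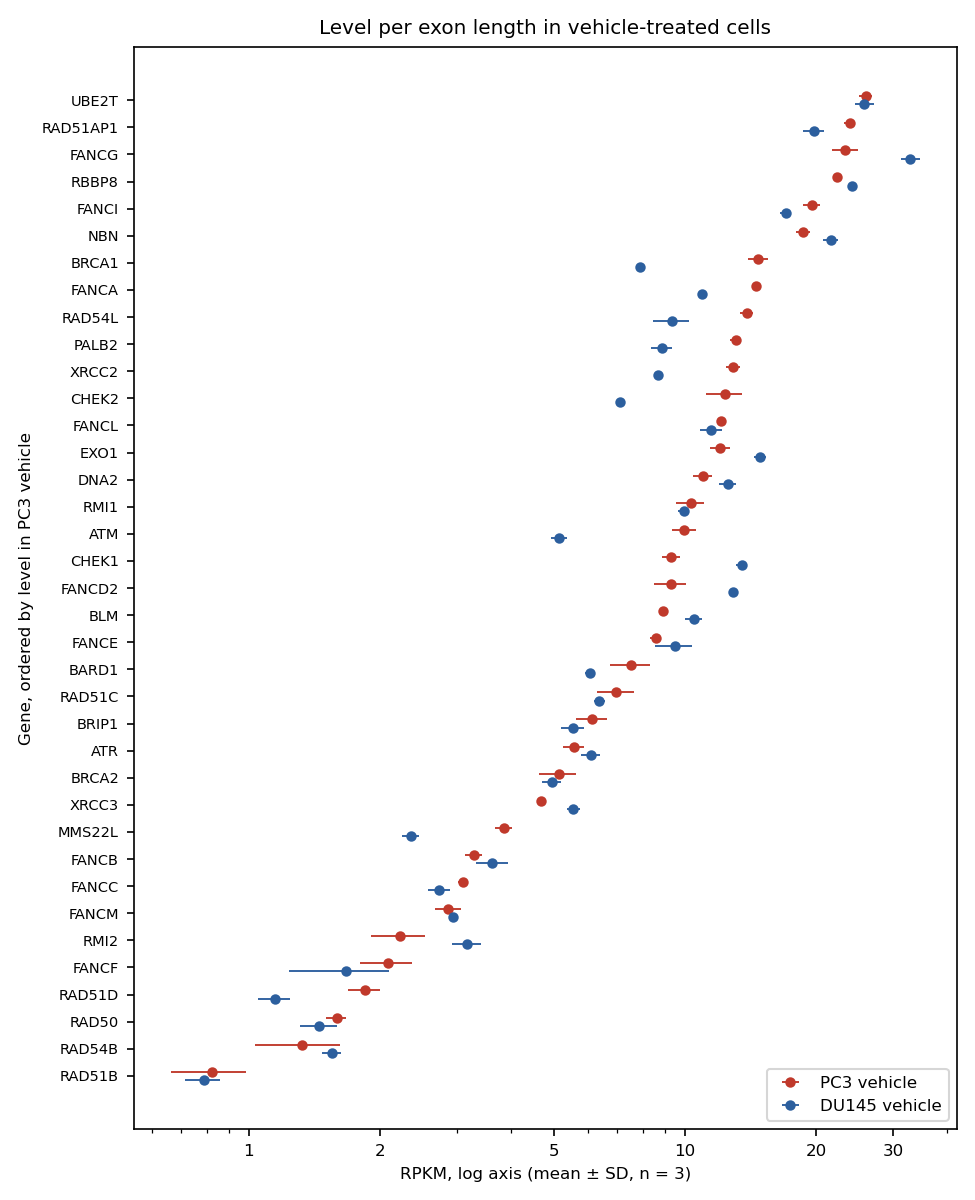
Points are the mean level per exon length (RPKM, log axis) in PC3 vehicle (red) and DU145 vehicle samples (blue), with the SD of 3 samples as bars. Genes are ordered by the PC3 level, from RAD51B at 0.825 to UBE2T at 26.0. The lines part most at ATM, BRCA1, CHEK2 and MMS22L.

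The wider pathway was read from 41 other genes of homologous recombination and Fanconi repair, of which 40 were tested. In PC3 cells 20 fell (50%) and 5 rose (12.5%), with a median of -0.18, where 21.7% of all genes tested fell and 21.7% rose. In DU145 cells 6 fell (15%) and 9 rose (22.5%), with a median of -0.0013, near the 16.8% and 17.2% of all genes tested. Of the genes called in both lines in the same direction, the 8 with the largest mean change were SFR1, MUS81, BABAM2, FIGNL1, CENPX, RECQL5, RFWD3 and ZSWIM7. SFR1, an accessory factor of recombination, fell by 0.81 and 0.30 on the log2 scale in PC3 and DU145 cells (adjusted p = 9.31e-05 and 0.0252). FIGNL1, an ATPase that acts in recombination, had -0.73 and -0.15 (adjusted p = 4.38e-08 and 0.00257). CENPX, which works with FANCM, had -0.64 and -0.23 (adjusted p = 9.88e-07 and 1.19e-05), and the ubiquitin ligase RFWD3 had -0.54 and -0.22 (adjusted p = 1.81e-07 and 2.89e-05). The other four rose. MUS81, a nuclease that cuts joint molecules, had 0.66 and 0.31 (adjusted p = 2.35e-06 and 9.01e-07), BABAM2, a subunit of the BRCA1-A complex, had 0.54 and 0.38 (adjusted p = 8.13e-06 and 2.11e-05), the helicase RECQL5 had 0.40 and 0.37 (adjusted p = 0.000226 and 6.31e-05), and ZSWIM7 had 0.44 and 0.30 (adjusted p = 0.00405 and 0.0162). The difference between the lines was positive for 19 of these 41 genes and negative for 1, MUS81, against 10.3% and 10.2% of all genes tested.

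The cell cycle lists moved alongside the 37 genes. Of the 36 DNA replication genes 36 fell in PC3 cells with a median of -0.67, and 11 fell and 2 rose in DU145 cells with a median of -0.081. Of the 20 mitosis genes 20 fell in PC3 cells (median -0.54) and 10 in DU145 cells (median -0.088). The proliferation marker MKI67 had log2 fold changes of -0.78 (adjusted p = 5.21e-09) and -0.26 (adjusted p = 1.27e-09). Their part in the result on the 37 genes was not tested. Non-homologous end joining, the other main route of break repair, moved less in PC3 cells: 7 of its 12 tested genes fell and 1 rose, with a median of -0.16, and in DU145 cells 4 fell and 2 rose, with a median of -0.033. Over all genes tested, 21.7% fell and 21.7% rose in PC3 cells, and 16.8% fell and 17.2% rose in DU145 cells. The difference between the lines was positive for 35 of 36 replication genes, 18 of 20 mitosis genes and 5 of 12 end joining genes, against 10.3% of all genes tested.

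**Figure D5:**
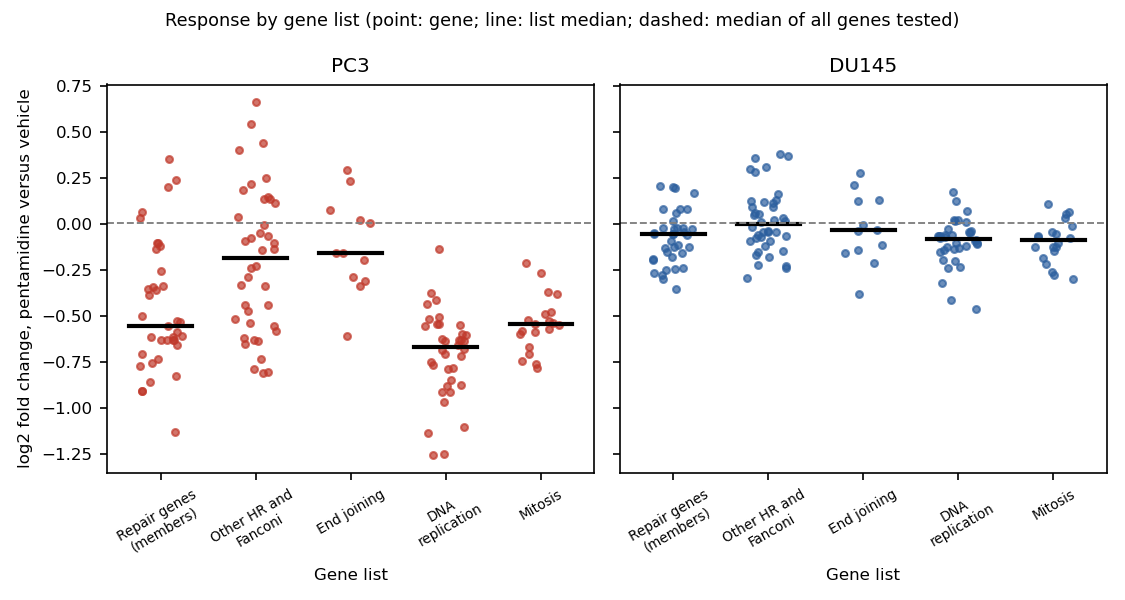
Each point is the log2 fold change of 1 gene, the black line is the median of its list and the dashed line the median of all genes tested. In PC3 cells the medians are -0.55 for the 37 repair genes, -0.18 for the other recombination and Fanconi genes, -0.16 for end joining, -0.67 for replication and -0.54 for mitosis, and in DU145 cells they lie between -0.088 and -0.0013.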

How the data were processed

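The whole-number counts per gene were deposited by the authors without normalization, from Oligo(dT)-selected RNA aligned with HISAT2 2.1.0 to GRCh38 per the methods and the submitters' processing notes. The counting program, its annotation and its strand setting are not given in the sources used here. Of 33595 entries with an Ensembl identifier, 32077 were kept as genes. Entries that repeated both the name and all counts of an earlier entry were left out, as were 44 lines of split text. Entries with the same name but other counts stayed separate. A further table that carries FPKM in its name, and 2 tables of the authors' own fold changes and p-values for each line, were not used.

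Samples were grouped by their labels. Counts were fitted over all genes with edgeR 4.0.16 (quasi-likelihood test, TMM, filterByExpr with a minimum count of 10) in R 4.3.3, with Benjamini-Hochberg adjustment over all genes tested and a threshold of 0.05. Each line was fitted with its own 6 samples and the difference between lines with all 12. A standard error is the log2 fold change over the square root of F. CPM and RPKM here were computed from the counts with TMM over all samples. Alternatives were DESeq2 1.42.0, other scalings, no filter, a replicate block, 1 fit of all samples and leaving out each sample. The fits were also run on simulated counts with the same dispersion for every gene, which checks the code and not the calls given here. The replicate numbers were treated as names, since same-numbered samples did not deviate together.

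The 37 genes and all gene lists were chosen with earlier results of these data known. Values per sample are given for the 10 genes with the largest mean change among those called in both lines, the 6 with the largest difference between lines and the 4 with the largest difference between vehicle groups. Some genes of the marker and pathway lists are not reported here by name.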

Additional observations from a re-analysis of the deposited data

Results flagged for a closer look

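The response to pentamidine differed between the lines for 24 of the 37 genes by the interaction of treatment and line (edgeR, adjusted p below 0.05), against 10.3% of all genes tested in this direction. The values given here are the DU145 log2 fold change minus that of PC3, and each was positive. Among the mediators these were BRIP1 (0.78), BARD1 (0.48), BRCA2 (0.48), BRCA1 (0.47) and PALB2 (0.33). Among the genes of the BCDX2 and CX3 complexes these were XRCC2 (0.66) and XRCC3 (0.62). Among the strand exchange genes these were RAD54L (0.81), RAD54B (0.71), RAD51AP1 (0.58) and MMS22L (0.35). Among the core Fanconi genes these were FANCB (0.93), FANCG (0.69), FANCA (0.60) and FANCC (0.42). Among the FANCD2 group these were UBE2T (0.64), FANCD2 (0.53) and FANCI (0.39). Among the BLM complex these were RMI2 (0.73), BLM (0.58) and RMI1 (0.47). Among the resection nucleases these were EXO1 (0.64) and DNA2 (0.54). The only kinase was CHEK2 (0.31). The adjusted p ranged from 8.84e-08 for FANCG to 0.0351 for RAD54B. In the same fit the DNA replication genes had a median difference of 0.62 and the mitosis genes one of 0.48, beside 0.47 for the 37 genes, and the part of these lists in the result was not tested.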

How the results depend on the processing

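Directions and calls of the 37 genes were the same as in the main fits under RLE scaling, without mitochondria-encoded genes and with the replicate block in all 4 comparisons, while the other settings moved some calls. With 1 sample left out, the count of genes that rose in PC3 cells was 1 to 2, since RAD50 lost its call without PC3 vehicle sample 2 or pentamidine sample 1 or 3. In the same fits the count that fell was 26 to 29 in PC3 and 10 to 12 in DU145 cells. The median in DU145 cells was -0.093 to -0.067, more negative in each of these fits than the -0.052 of the main fit. The median difference between lines was 0.41 to 0.51 with 0 to 1 gene negative (RAD50, without PC3 pentamidine sample 2), and the median difference between vehicle groups was -0.083 to -0.014. Scaling by library size alone gave medians of -0.0026 in DU145 cells, 0.54 for the difference and -0.12 between vehicle groups. Under it, genes that were not called in DU145 cells turned to 0.0033 (RAD54L), 0.023 (RAD54B), 0.027 (FANCF), 0.028 (FANCG), 0.0067 (NBN), 0.024 (RAD50) and 0.031 (ATM), and the vehicle differences of FANCM and UBE2T turned to -0.024 and -0.064. Without the filter UBE2T turned to -0.0014. With 1 sample left out, values not called in the main fit and near 0 took both signs, with ranges in DU145 cells of -0.014 to 0.048 (XRCC3), -0.12 to 0.011 (RAD54L), -0.13 to 0.046 (RAD54B), -0.10 to 0.035 (FANCE), -0.22 to 0.13 (FANCF), -0.050 to 0.0099 (FANCG), -0.12 to 0.047 (RAD50) and -0.059 to 0.045 (ATM), and for the vehicle difference of -0.12 to 0.013 (BRCA2), -0.20 to 0.044 (RAD51B) and -0.013 to 0.060 (UBE2T). Under library size alone BRCA1, MMS22L and FANCI lost their calls in DU145 cells (adjusted p = 0.0797, 0.0748 and 0.248) and the difference of CHEK1 gained one (0.0414). In 1 fit of all samples FANCI in DU145 cells had an adjusted p of 0.0678. CHEK2 lost its call in the difference under DESeq2 (0.0657) and without the filter (0.0596), and PALB2 lost its own without PC3 pentamidine sample 1 (0.0632), DU145 vehicle sample 1 (0.0606) or DU145 pentamidine sample 3 (0.0717). Between vehicle groups BRIP1, RAD51C and FANCC gained calls under library size alone (0.0304, 0.046 and 0.008), DNA2, ATR and RBBP8 lost theirs (0.0777, 0.315 and 0.369), and ATR and RBBP8 also lost theirs without the filter (0.0899 and 0.122). With 1 sample left out, RAD51C and FANCC passed the threshold without PC3 vehicle sample 1 (0.0234 and 0.0381), RAD54B without PC3 vehicle sample 2 (0.0247) and BRIP1 without PC3 vehicle sample 3 (0.0407). The cause of these changes was not tested. The replicate numbers shared by the groups did not pair the samples (correlations of deviations from -0.12 to 0.047 between same-numbered samples), and with the replicate number as a block 28 genes fell and 2 rose in PC3 cells and 11 fell and 1 rose in DU145 cells, the difference was positive for 24, and vehicle levels were lower for 12 and higher for 11, with medians of -0.56, -0.052, 0.47 and -0.035. Depth limits the genes with few counts: RAD51B, RAD54B, FANCF, RMI2 and FANCB had under 15 CPM in every sample. RAD50 and RAD54B each share most of their exon bases with another gene on the same strand, so their counts are uncertain.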

Other observations

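Several of the 37 genes share a start region with a gene read from the opposite strand, and the pairs were looked at after the responses were known. Partners were taken with annotated starts within 1000 bases, and those tested are given. Only the outermost annotated start of each gene was used. NBR2, annotated as a bidirectional promoter RNA that overlaps BRCA1 on the other strand, was therefore not among the partners. NBR1, an autophagy receptor, starts 236 bases from the outermost annotated start of BRCA1, which is near 1 of the 2 windows of BRCA1 in the RefSeq table and not near the other. NBR1 rose in PC3 cells with a log2 fold change of 0.52 (adjusted p = 2.63e-07), where BRCA1 had -0.63, and had 0.018 in DU145 cells (adjusted p = 0.81), where BRCA1 had -0.16. MOSPD2, 372 bases from FANCB on the X chromosome, rose in PC3 cells by 0.44 (adjusted p = 0.00146), where FANCB had -1.13, and had 0.14 in DU145 cells (adjusted p = 0.336). The pseudogene CIDECP, 49 bases from FANCD2, had 0.40 (adjusted p = 0.021) and 0.30 (adjusted p = 0.0609), where FANCD2 had -0.58 and -0.052. NPAT, the histone gene regulator that overlaps the start of ATM, fell in both lines, by 0.53 (adjusted p = 2.13e-05) and 0.23 (adjusted p = 0.00228) on the log2 scale, while ATM was called in neither. FKBP3, 621 bases from FANCM, had -0.19 (adjusted p = 0.0138) in PC3 and 0.045 (adjusted p = 0.529) in DU145 cells. DCTN5, ZFYVE21, C12orf4, HNRNPK and HSCB, the partners of PALB2, XRCC3, RAD51AP1, RMI1 and CHEK2, had values of -0.15 to 0.037 in PC3 cells with adjusted p of 0.106 or more. In DU145 cells 3 of these 5 fell, DCTN5 at -0.16 (adjusted p = 0.00291), C12orf4 at -0.24 (0.00298) and HNRNPK at -0.088 (0.0159), while ZFYVE21 and HSCB had 0.0054 and 0.057 (0.955 and 0.867).

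Among the other pathway genes, USP1, which removes ubiquitin from FANCD2, was chosen after its values were seen and was called in opposite directions. It had -0.24 (adjusted p = 0.00214) in PC3 and 0.092 (adjusted p = 0.046) in DU145 cells, where the groups overlapped. The difference was 0.33 (adjusted p = 0.00073). The calls of USP1 were not checked under the other settings. MRE11, the nuclease that works with RAD50 and NBN, fell in PC3 cells (-0.33, adjusted p = 0.000151), had 0.053 in DU145 cells (adjusted p = 0.455), and had -0.76 for DU145 minus PC3 vehicle samples (adjusted p = 6.36e-09).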
